A study of Mus musculus with 24 samples.

Results

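The 28 genes described here make cholesterol, or control and move it, and were measured by RNA-seq in Neuro2A cells, a mouse neuroblastoma line. They were taken as a list of gene symbols: 20 enzymes from acetyl-CoA to cholesterol, 5 genes of the SREBP control system and 3 genes of sterol transport inside the cell. A gene was kept where it had at least 0.5 CPM (counts scaled to a common library size) in at least 3 samples, which 28 of 28 did, among 13901 genes that passed of 39253 listed. The 24 samples were wild-type cells in 8 groups of 3. In 6 groups the cells were transfected by lipofection with a plasmid for one of 3 RNA-cutting CRISPR effectors and were harvested 48 hr later: RfxCas13d, HiFi-RfxCas13d (a high-fidelity variant made to cut fewer bystander RNAs) and DiCas7-11 (an effector of another family). By the plasmid names a CAG promoter, active in most cell types, drove the effector. A U6 promoter on the same plasmid drove a CRISPR RNA (crRNA), which was either crRNA-10 against mouse ataxin-2 mRNA (written mATXN2) or a non-targeted control (NTG). The seventh group was untransfected, and the eighth was a positive control treated with an ataxin-2 antisense oligonucleotide (ASO), whose delivery, dose and timing are not given in the sources used here.

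The names of the control arm and of the guide disagree between the sources. The sample labels call the control arm NTG and the guide G10, whereas the columns of the count table call them EV and G12. Samples were matched by effector, arm and replicate number, so what the arm called NTG carried beside the effector is in doubt, and every NTG value below holds for that arm as labelled. Untransfected cells had neither plasmid nor lipid by their label, so lipid, plasmid and effector cannot be told apart in a comparison of NTG with untransfected cells. All samples came from 1 cell line, and the study's methods call the replicates of its cell experiments biologically independent, so p-values measure the spread between independent samples of that line.

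Library totals ran from 12665725 to 22504999 estimated counts, with the ASO libraries at 21874644 to 22504999 above every other library. Replicates of DiCas7-11 NTG differed from each other more than those of any other group, with a chi-square per gene of 3.33 to 5.59 between pairs against 1.68 to 2.55 in the other 7 groups. Of 11 markers of neuroblastoma and neurons, 9 passed the filter on low values, while 0 of 3 markers of microglia and leukocytes and 0 of 2 of astrocytes did, and 1 of 4 fibroblast and 1 of 2 epithelial markers passed at low levels. Ataxin-2 mRNA itself, the target, differed between the mATXN2 and NTG arms by a log2 fold change of -0.10 ± 0.037 (adjusted p = 0.178) with RfxCas13d, -0.23 ± 0.037 (adjusted p = 0.00157) with HiFi-RfxCas13d and -0.20 ± 0.037 (adjusted p = 0.00557) with DiCas7-11, where the value after ± is the standard error, and by -1.25 ± 0.039 (adjusted p = 1.65e-19) between ASO-treated and untransfected cells. All adjusted p-values are from edgeR's quasi-likelihood test with Benjamini-Hochberg adjustment over the 13901 genes of a comparison, and a gene is called higher or lower where it is under 0.05.

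Cells take up cholesterol from lipoproteins and also build it from acetyl-CoA. The transcription factor SREBP2, product of Srebf2, waits in the endoplasmic reticulum bound to its escort SCAP. When membrane sterol is low, the pair moves to the Golgi, where proteases free the active factor, which then switches on nearly every enzyme of the route. When sterol is high, the proteins INSIG1 and INSIG2 hold SCAP back. SREBP1, product of Srebf1, is the relative that mainly serves fatty acid synthesis. Sterol-derived oxysterols also activate the nuclear receptors LXR, which turn on export genes such as Abca1.

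Promoter sequences of 6 members are shown because each carries a string that SREBP2, its partner NF-Y or E-box proteins are known to read. These 6 also include members that moved in both directions. Windows came from RefSeq on the mouse build GRCm38.p6, which is not the GRCm39 build of the authors' quantification, and each holds 250 bases before and 50 bases after an annotated start. The table held 31 windows for 23 of the 28 members. Capitals mark TCACNCCAC, a form of the sterol regulatory element, CCAAT, the NF-Y box, or CACGTG, the E-box, on either strand, so that a CCAAT on the opposite strand reads ATTGG. Of the 6 windows shown, all hold CCAAT, only that of Hmgcs1 holds TCACNCCAC, and only those of Hsd17b7 and Insig1 hold CACGTG. Each sequence is given 5′ to 3′ along its gene.
Hmgcs1, cytosolic HMG-CoA synthase (chr13:119690101-119690400, plus strand): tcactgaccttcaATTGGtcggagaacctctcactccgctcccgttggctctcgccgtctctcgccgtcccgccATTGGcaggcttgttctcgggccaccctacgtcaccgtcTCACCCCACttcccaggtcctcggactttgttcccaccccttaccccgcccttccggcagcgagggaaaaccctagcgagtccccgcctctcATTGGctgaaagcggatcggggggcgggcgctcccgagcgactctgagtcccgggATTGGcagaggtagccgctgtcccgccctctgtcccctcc
Cyp51, lanosterol demethylase (chr5:4104648-4104947, minus strand): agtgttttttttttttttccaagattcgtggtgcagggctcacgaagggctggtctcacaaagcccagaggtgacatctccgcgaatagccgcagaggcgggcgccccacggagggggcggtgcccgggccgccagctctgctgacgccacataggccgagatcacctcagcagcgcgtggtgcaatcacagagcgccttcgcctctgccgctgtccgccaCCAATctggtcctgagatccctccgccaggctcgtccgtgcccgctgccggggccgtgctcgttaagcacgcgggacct
Hsd17b7, a late sterol reductase (chr1:169969156-169969455, minus strand): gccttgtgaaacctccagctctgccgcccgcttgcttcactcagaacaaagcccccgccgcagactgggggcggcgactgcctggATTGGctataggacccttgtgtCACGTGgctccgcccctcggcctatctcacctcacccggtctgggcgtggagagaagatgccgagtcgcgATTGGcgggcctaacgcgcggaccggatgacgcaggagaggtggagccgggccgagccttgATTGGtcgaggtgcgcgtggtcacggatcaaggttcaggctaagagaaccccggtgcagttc
Dhcr7, the last enzyme of one branch (chr7:143829964-143830263, plus strand): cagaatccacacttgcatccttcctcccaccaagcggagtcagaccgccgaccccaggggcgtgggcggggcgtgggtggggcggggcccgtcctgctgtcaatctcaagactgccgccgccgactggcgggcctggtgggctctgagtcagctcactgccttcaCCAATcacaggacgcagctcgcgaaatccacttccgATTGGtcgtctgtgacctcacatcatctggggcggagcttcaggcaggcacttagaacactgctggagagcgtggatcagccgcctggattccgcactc
Srebf2, the SREBP2 gene (chr15:82147019-82147318, plus strand): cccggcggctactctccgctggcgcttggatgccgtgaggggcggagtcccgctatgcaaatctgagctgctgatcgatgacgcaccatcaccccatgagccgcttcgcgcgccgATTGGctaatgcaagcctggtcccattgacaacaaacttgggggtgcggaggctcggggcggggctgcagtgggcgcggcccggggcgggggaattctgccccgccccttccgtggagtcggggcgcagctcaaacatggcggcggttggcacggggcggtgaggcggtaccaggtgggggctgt
Insig1, the sterol-sensing retention factor (chr5:28071162-28071461, plus strand): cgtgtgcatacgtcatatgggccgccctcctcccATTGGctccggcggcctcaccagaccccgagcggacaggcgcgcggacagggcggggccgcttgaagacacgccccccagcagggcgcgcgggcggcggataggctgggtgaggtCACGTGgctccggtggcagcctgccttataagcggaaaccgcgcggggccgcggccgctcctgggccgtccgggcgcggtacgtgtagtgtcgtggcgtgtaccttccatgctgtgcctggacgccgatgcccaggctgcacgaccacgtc

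TCACNCCAC was found in 1 of the 31 member windows, that of Hmgcs1, and in 1.24% of all 32851 windows in the table. CCAAT was found in 22 of 31 member windows, 71% of them and covering 21 members, against 37.4% of all windows. CACGTG was found in 6 of 31, or 19.4%, in Hsd17b7, Sc5d, Dhcr7, Scap and Insig1, against 7.15% of all windows. Fdps, Fdft1, Sqle, Stard4 and Npc1 had no window in the table. Windows of one gene overlap or share bases in some cases, a match is only a string of letters, and a window without one says nothing about the factor.

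Per kilobase of transcript, the route was expressed over a wide range in untransfected cells. Fdps, which makes farnesyl diphosphate, stood highest at 159 ± 5.61 CPM per kilobase (SD, n = 3), followed by Sqle, the squalene epoxidase, at 92.6 ± 0.525, Srebf2 at 79.5 ± 1.56 and Hmgcs1 at 75.8 ± 0.606. Srebf2 and Hmgcs1 are neighbours in that order whose difference of means was above their summed SD, while Cyp51 at 70.9 ± 0.674 came next. At the low end stood Tm7sf2, a sterol C14 reductase, at 4.88 ± 0.419, Mvk, mevalonate kinase, at 7.18 ± 0.50, and Npc1, a lysosomal cholesterol carrier, at 10.9 ± 0.241. Lengths are those of the longest protein-coding transcript in GENCODE M21, so these levels depend on that choice. All other levels below are TMM-scaled CPM of one gene compared with itself.

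**Figure D1:**
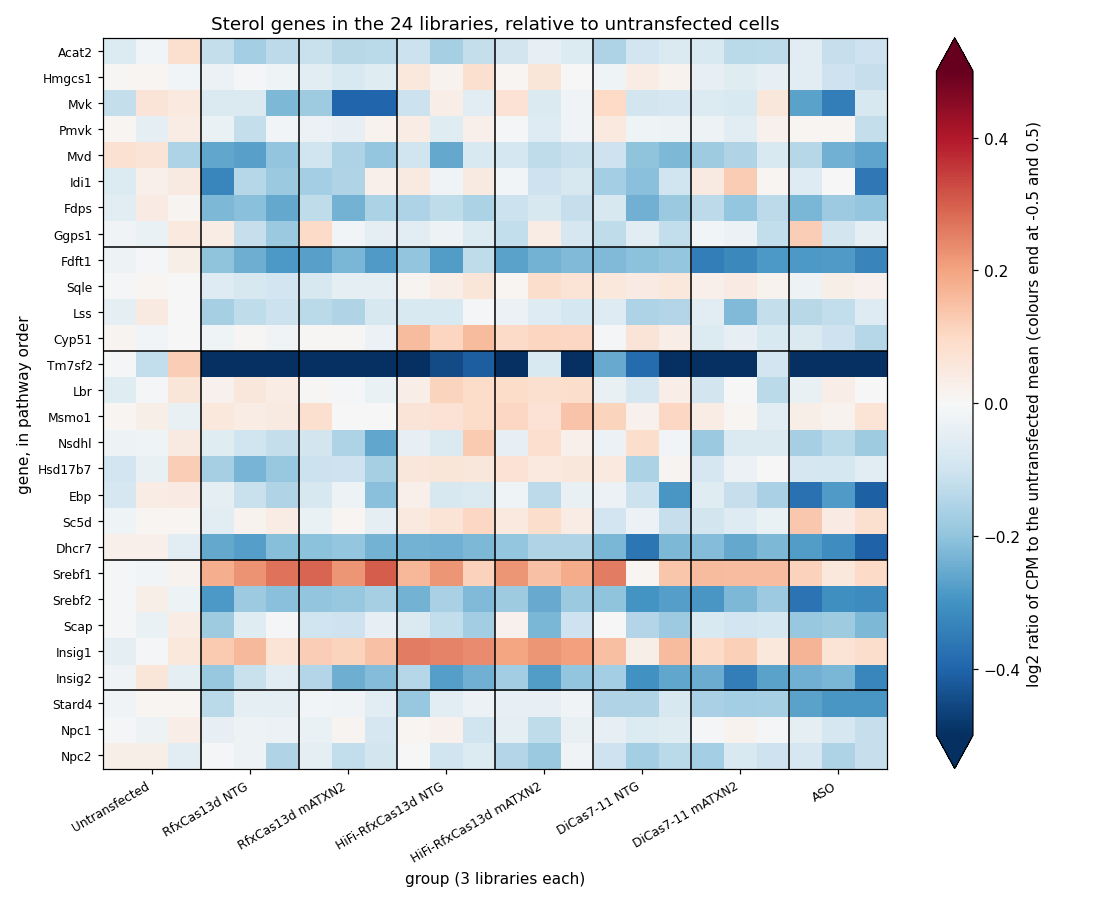
Log2 ratio of the CPM of each of the 28 genes (rows, in pathway order) in each of the 24 samples (columns, by group) to the mean of untransfected cells, with colours that end at -0.5 and 0.5. Fdps, Fdft1, Dhcr7 and Srebf2 are below the untransfected mean in every sample of the other 7 groups, and Srebf1 and Insig1 are above it.

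The ataxin-2 crRNA was compared with NTG within each effector to ask whether targeting changed sterol genes. No member was called in any of the 3 comparisons: 0 of 28 with RfxCas13d, where 0.914% of all genes tested were called higher and 0.475% lower, 0 of 28 with HiFi-RfxCas13d, where 0.281% were higher and 0.0144% lower, and 0 of 28 with DiCas7-11, where 0.554% were higher and 0.388% lower. At such shares of the background, a count of 0 in 28 is no result about the members. The members' median log2 fold changes were 0.0080, 0.0026 and -0.0027, beside 0.0016, -0.0010 and -0.0010 over all genes tested. The 95% confidence interval lay within 0.2 on the log2 scale on either side of 0 for 23, 25 and 25 members, so that larger differences of these members were outside the intervals. The widest interval was that of Tm7sf2, the member with the fewest counts, for which differences as large as 0.411 to 0.442 higher were inside the interval with RfxCas13d and HiFi-RfxCas13d.

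At an unadjusted p under 0.05 the numbers of members were 0, 0 and 6, the last with DiCas7-11, where 1913, 1035 and 1951 of all 13901 genes were under it. DESeq2 called 0, 0 and 2 members and 274, 66 and 286 genes in all, and limma-trend, with p-values adjusted over 10 comparisons together, 0, 0 and 3 members and 707, 269 and 636 genes. Cyp51, the cytochrome P450 that demethylates lanosterol, measured 277, 291 and 285 CPM in DiCas7-11 NTG and 266, 271 and 265 in DiCas7-11 mATXN2, a log2 difference of -0.092 ± 0.024 (adjusted p = 0.0641). Fdft1, squalene synthase, measured 103, 104 and 105 and 94.2, 95.6 and 97.9, a difference of -0.11 ± 0.035 (adjusted p = 0.122). Idi1, the isomerase that supplies the 2 building blocks of farnesyl diphosphate, measured 80.7, 78.5 and 84.7 and 93.5, 98.9 and 91.2, a difference of 0.22 ± 0.064 (adjusted p = 0.0991). Of these 3 genes, Cyp51 and Fdft1 measured lower and Idi1 higher in the mATXN2 samples, and none passed the adjusted threshold. The other 3 were Hmgcs1 (-0.059 ± 0.025), Msmo1 (-0.078 ± 0.032) and Nsdhl (-0.13 ± 0.053). Cyp51 was called without DiCas7-11 NTG replicate 1 (adjusted p = 0.0113) and with the replicate number as a block (adjusted p = 0.0395), and edgeR adjusted in that way called Cyp51, Fdft1 and Idi1, at adjusted p of 0.0084, 0.0248 and 0.0189.

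Idi1 has a near-identical pseudogene, Idi1-ps1, and reads can be split between the pair. Idi1-ps1 moved the other way in the same comparison, with a log2 fold change of -0.54 ± 0.082 (adjusted p = 0.00128), and the sum of the pair differed by -0.061 (adjusted p = 0.390). Values for Idi1 alone are therefore uncertain in all comparisons.

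**Figure D2:**
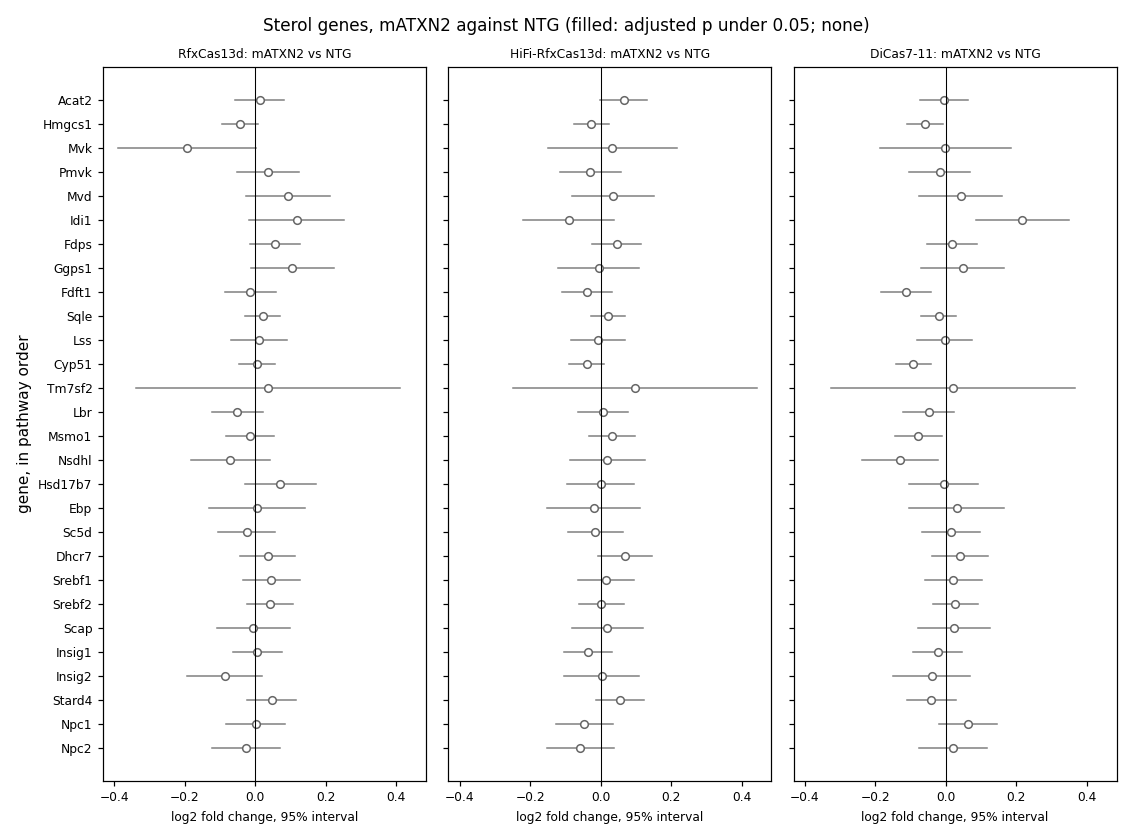
Log2 fold change of mATXN2 against NTG for each of the 28 genes within each effector, with 95% confidence intervals from edgeR (lines) and open circles for members not called. No member passed the adjusted threshold, and 23 to 25 intervals per effector lie within 0.2 of 0.

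The difference between effectors in the response to mATXN2 was also tested as an interaction. It called 0 of 28 members for each pair of effectors, where the share of all genes called was 0%. At an unadjusted p under 0.05 the interaction gave 1 member for HiFi-RfxCas13d against RfxCas13d, 1 for DiCas7-11 against RfxCas13d and 2 for DiCas7-11 against HiFi-RfxCas13d, and over all genes 855, 1084 and 1028. DESeq2 called 0, 3 and 3 genes in all and limma 0, 0 and 0.

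The larger differences lay between untransfected cells and the rest. Transfection with an effector and NTG, and the ASO, were each compared with the same 3 untransfected samples, so the 4 comparisons share their controls and a shift of those controls would appear in all 4. With RfxCas13d NTG, 2 members were higher and 11 lower, where 5.60% of all genes were higher and 5.66% lower. With HiFi-RfxCas13d NTG, 3 were higher and 7 lower, against 10.3% and 10.6%. With DiCas7-11 NTG, 2 were higher and 10 lower, against 11.1% and 10.8%. With the ASO, 1 was higher and 17 lower, against 21.0% and 21.7%. Without untransfected replicate 3 the RfxCas13d NTG count fell to 8 of 28, and in a fit of only the 2 groups the DiCas7-11 NTG count, from the group with the widest spread between replicates, fell to 5. The members' median log2 fold changes were -0.090, -0.041, -0.10 and -0.11, beside medians over all genes of -0.0046, -0.0054, -0.0062 and -0.0021. Members lower in all 4 were Acat2, Fdps, Fdft1, Dhcr7 and Srebf2, and members called in none were Pmvk, Ggps1, Lbr, Msmo1, Sc5d and Npc1. In bulk RNA fewer cells with a transcript and less transcript per cell cannot be told apart.

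**Figure D3:**
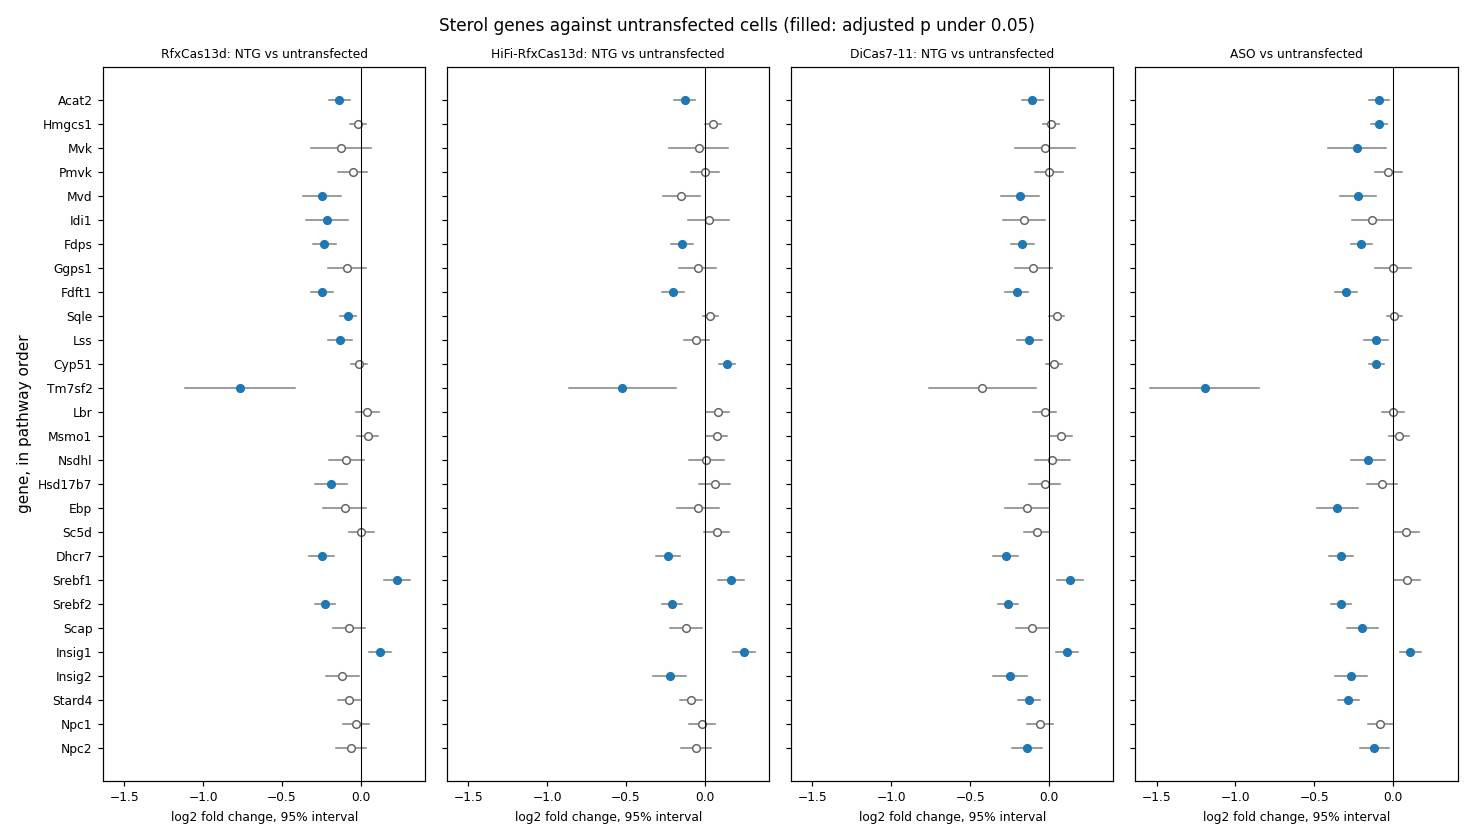
Log2 fold change against untransfected cells for each of the 28 genes in the 3 NTG groups and the ASO group, with 95% confidence intervals from edgeR (lines) and filled circles for members called. The 4 panels share the same 3 untransfected samples. Srebf2, Fdft1, Fdps and Dhcr7 are to the left of 0 in each panel, and Tm7sf2 reaches -1.20 with the ASO.

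A list of 14 interferon-stimulated genes, which mark the response to foreign nucleic acid, moved with the same groups. Their summed level was 86.3 to 97.2 CPM in untransfected cells, 104 to 112 with the ASO, 152 to 171 with HiFi-RfxCas13d NTG, 159 to 176 with DiCas7-11 NTG and 213 to 251 with RfxCas13d NTG. Of the 14, 12, 10 and 11 were higher in RfxCas13d, HiFi-RfxCas13d and DiCas7-11 NTG and 5 with the ASO, and 0 were lower. The part of the interferon response, and of the greater depth of the ASO libraries, in the differences below was not tested.

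Srebf2 had the smallest adjusted p among members in 3 of the 4 comparisons. Untransfected cells measured 402, 412 and 397 CPM, RfxCas13d NTG 331, 355 and 349, HiFi-RfxCas13d NTG 343, 360.2 and 346, DiCas7-11 NTG 351, 328 and 333 and the ASO group 313, 326 and 325. Every transfected or ASO-treated sample was below every untransfected one, and every ASO sample was also below every sample of the 3 NTG groups. The log2 fold changes were -0.23 ± 0.032 (adjusted p = 1.14e-05), -0.21 ± 0.032 (adjusted p = 2.21e-05), -0.26 ± 0.032 (adjusted p = 9.02e-07) and -0.33 ± 0.031 (adjusted p = 1.09e-09). The calls for Srebf2 held with each library left out.

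Srebf1 went the other way in the 3 NTG groups. It measured 216, 215 and 220.3 CPM in untransfected cells, 246, 254 and 262 with RfxCas13d, 244, 253 and 235 with HiFi-RfxCas13d and 259, 219 and 239 with DiCas7-11. The first pair of effectors did not overlap untransfected cells, whereas DiCas7-11 replicate 2 fell among them. Log2 fold changes were 0.23 ± 0.040 (adjusted p = 0.000275), 0.17 ± 0.040 (adjusted p = 0.00293) and 0.14 ± 0.040 (adjusted p = 0.0155), and the last was not called without DiCas7-11 NTG replicate 1 (adjusted p = 0.144) or when only the 2 groups compared were fitted. With the ASO Srebf1 measured 236, 225 and 232 CPM, a difference of 0.089 ± 0.039 (adjusted p = 0.0710), which was not called. It was called higher there with no filter on low counts (adjusted p = 0.0126), in a fit of only the 2 groups (0.0121) and after correction for transcript length (0.0368) or GC content (0.000785).

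Insig1 was higher in all 4 comparisons. It measured 169, 173 and 181 CPM in untransfected cells, 191, 195 and 183 with RfxCas13d, 208, 207 and 205 with HiFi-RfxCas13d, 193, 178 and 195 with DiCas7-11 and 196, 183 and 185 with the ASO. Only DiCas7-11 overlapped untransfected cells, through its replicate 2, and HiFi-RfxCas13d stood above all other samples named here. Log2 fold changes were 0.12 ± 0.034 (adjusted p = 0.0189), 0.25 ± 0.034 (adjusted p = 5.41e-06), 0.12 ± 0.034 (adjusted p = 0.0156) and 0.11 ± 0.033 (adjusted p = 0.00850). The HiFi-RfxCas13d call held with each library left out. The RfxCas13d call was lost without NTG replicate 1 or 2 or untransfected replicate 1 or 2 (adjusted p = 0.0517 to 0.103), the DiCas7-11 call without NTG replicate 1 or 3 or untransfected replicate 1 (adjusted p = 0.0550 to 0.0941) and in a fit of only the 2 groups, and the ASO call without ASO replicate 1 or untransfected replicate 1 (adjusted p = 0.0608 to 0.0747).

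Its relative Insig2, less dependent on SREBP2 in most cells, was lower in 3 of the 4. It measured 46.0, 48.5 and 45.0 CPM in untransfected cells, 42.1, 38.4 and 39.4 with HiFi-RfxCas13d, 41.4, 37.7 and 38.9 with DiCas7-11 and 39.3, 39.7 and 37.1 with the ASO, with no overlap. Log2 fold changes were -0.22 ± 0.052 (adjusted p = 0.00239), -0.25 ± 0.052 (adjusted p = 0.000913) and -0.27 ± 0.050 (adjusted p = 7.16e-05). With RfxCas13d it measured 40.8, 43.1 and 44.7 CPM, a difference of -0.12 ± 0.051 (adjusted p = 0.146), which was not called. Scap, the escort of both SREBPs, was lower with the ASO, from 92.9, 91.3 and 95.9 to 81.9, 82.6 and 79.9 CPM without overlap (-0.19 ± 0.049 (adjusted p = 0.00177)), and its differences in the NTG groups ran from -0.12 to -0.076, not called. Scap was called lower with HiFi-RfxCas13d NTG in a fit of only the 2 groups (adjusted p = 0.0422) and with DiCas7-11 NTG without NTG replicate 1 (adjusted p = 0.0226). Whether Scap and Insig2 differ between the single groups in which they were and were not called was not tested. Over both crRNA arms Insig2 differed by -0.11 between DiCas7-11 and RfxCas13d (adjusted p = 0.0588), not called. It was called there with the replicate block (0.0477).

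**Figure D4:**
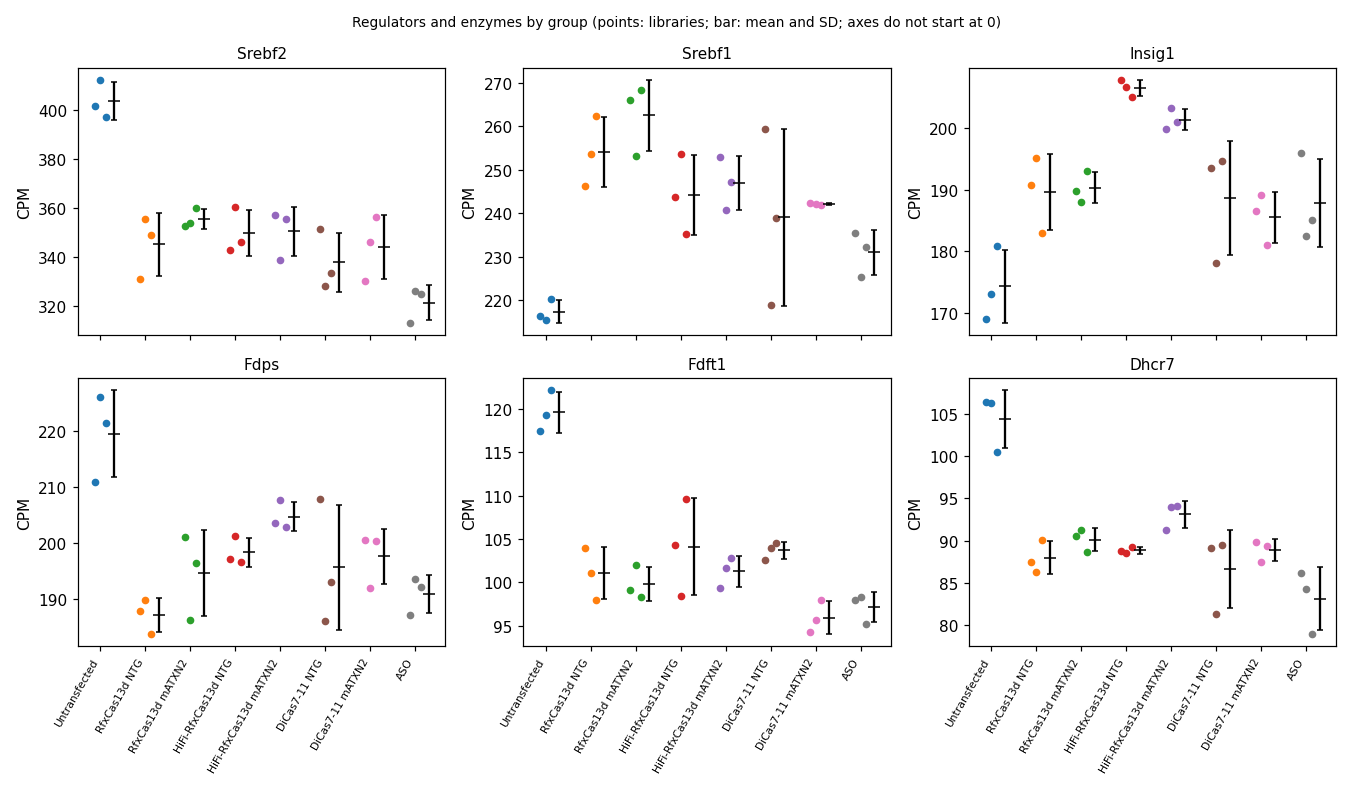
TMM-scaled CPM (vertical axes, which do not start at 0) of Srebf2, Srebf1, Insig1, Fdps, Fdft1 and Dhcr7 in each of the 8 groups, 1 point per sample, with a bar for the mean and SD of 3 samples. Srebf2 lies at 397 to 412 CPM in untransfected cells and at 313 to 360.2 in the NTG and ASO groups, and Insig1 has its lowest mean in untransfected cells.

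The first steps run from acetyl-CoA to farnesyl diphosphate and hold 8 members, of which 4, 2, 3 and 5 were lower with RfxCas13d, HiFi-RfxCas13d and DiCas7-11 NTG and with the ASO, and 0 were higher. Of all genes, 5.66%, 10.6%, 10.8% and 21.7% were lower and 5.60%, 10.3%, 11.1% and 21.0% higher. Fdps, farnesyl diphosphate synthase, was lower in all 4. It measured 211, 226 and 222 CPM in untransfected cells, 188, 189.8 and 184 with RfxCas13d, 197, 201 and 197 with HiFi-RfxCas13d, 208, 186 and 193 with DiCas7-11 and 187, 194 and 192 with the ASO, all below the untransfected samples. Against untransfected cells the log2 fold changes of Fdps were -0.23 ± 0.034 (adjusted p = 2.99e-05), -0.15 ± 0.034 (adjusted p = 0.00253), -0.17 ± 0.034 (adjusted p = 0.000668) and -0.20 ± 0.033 (adjusted p = 1.57e-05), and the calls held with each library left out.

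Acat2, the thiolase that joins acetyl-CoA units, measured 143, 148 and 158 CPM in untransfected cells, 138, 133 and 137 with RfxCas13d, 139, 133 and 138 with HiFi-RfxCas13d, 134, 139.8 and 142 with DiCas7-11 and 144, 138 and 139 with the ASO. The ASO samples overlapped the untransfected ones and the others did not, and untransfected replicate 3 was the highest of all. Acat2 changed on the log2 scale by -0.14 ± 0.033 (adjusted p = 0.00680), -0.13 ± 0.033 (adjusted p = 0.00566), -0.10 ± 0.033 (adjusted p = 0.0236) and -0.088 ± 0.032 (adjusted p = 0.0274). Without untransfected replicate 3 each of the 4 calls was lost, at adjusted p of 0.0824, 0.0736, 0.213 and 0.275. The DiCas7-11 call was also lost without NTG replicate 1 or untransfected replicate 2 and in a fit of only the 2 groups. The ASO call was also lost without untransfected replicate 2 or ASO replicate 2 or 3 and under 6 of 9 other processing settings. Acat2 can share reads with its neighbour Acat3, and the sum of the pair was lower in all 4, by -0.17, -0.16, -0.12 and -0.11 (adjusted p = 0.000806, 0.000697, 0.00563 and 0.00629).

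Mvd, which decarboxylates mevalonate diphosphate, measured 46.4, 46.1 and 39.7 CPM in untransfected cells, 36.8, 36.5 and 38.5 with RfxCas13d, 41.1, 38.4 and 37.7 with DiCas7-11 and 39.9, 37.3 and 36.7 with the ASO. Untransfected replicate 3 was the lowest of its group and lay below the highest DiCas7-11 and ASO samples. On the log2 scale Mvd differed by -0.25 ± 0.058 (adjusted p = 0.00522), -0.18 ± 0.058 (adjusted p = 0.0220) and -0.22 ± 0.055 (adjusted p = 0.00179), and with HiFi-RfxCas13d, at 41.1, 37.0 and 41.8 CPM, -0.15 ± 0.057 (adjusted p = 0.0601), not called. The DiCas7-11 call was lost without NTG replicate 2 or 3 or untransfected replicate 1 or 2 (adjusted p = 0.0792 to 0.126), in a fit of only the 2 groups and after correction for GC content. The HiFi-RfxCas13d difference was called without HiFi-RfxCas13d NTG replicate 3 or untransfected replicate 3 (adjusted p = 0.0468 and 0.00896).

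Hmgcs1, HMG-CoA synthase, was called with the ASO, from 263, 264 and 260.0 to 253, 244 and 242 CPM with no overlap (-0.090 ± 0.024 (adjusted p = 0.00333)). In the NTG groups it measured 257, 260.3 and 259, 272, 266 and 277 and 259, 269 and 266 CPM, with differences of -0.020 ± 0.025, 0.049 ± 0.025 and 0.011 ± 0.025, none called. Mvk went from 11.0, 12.5 and 12.3 to 9.91, 9.38 and 11.3 CPM with the ASO, overlapping (-0.23 ± 0.089 (adjusted p = 0.0417)), a call lost without untransfected replicate 2 or 3 or ASO replicate 1 or 2 (adjusted p = 0.109 to 0.178) and under 7 of 9 other processing settings. At about 10 CPM Mvk is among the least counted members. Idi1 was called lower with RfxCas13d NTG, from 86.4, 92.2 and 93.4 to 72.4, 82.1 and 79.6 CPM (-0.21 ± 0.066 (adjusted p = 0.0335)), a call lost without NTG replicate 1 or 3 or untransfected replicate 2 or 3 (adjusted p = 0.0613 to 0.164). The sum of Idi1 and Idi1-ps1 gave -0.018 there (adjusted p = 0.795), and was higher with HiFi-RfxCas13d at 0.14 (adjusted p = 0.00265) and DiCas7-11 at 0.098 (adjusted p = 0.0276), so the direction of Idi1 depended on how its reads were pooled. Idi1 was also called lower with the ASO without ASO replicate 2 (adjusted p = 0.0144). Pmvk, phosphomevalonate kinase, stayed at 61.7 to 69.3 CPM in these 5 groups, and Ggps1, which makes geranylgeranyl diphosphate for protein prenylation, at 53.8 to 66.6 CPM.

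The next 4 members, Fdft1, Sqle, Lss and Cyp51, run from farnesyl diphosphate to lanosterol and its demethylation. Fdft1, which commits farnesyl diphosphate to sterols, measured 117, 119 and 122 CPM in untransfected cells, 104, 101 and 98.0 with RfxCas13d, 104, 98.5 and 109.6 with HiFi-RfxCas13d, 103, 104 and 105 with DiCas7-11 and 98.0, 98.3 and 95.2 with the ASO. None of these overlapped the untransfected samples, and log2 fold changes were -0.24 ± 0.035 (adjusted p = 1.37e-05), -0.20 ± 0.034 (adjusted p = 0.000100), -0.20 ± 0.035 (adjusted p = 8.22e-05) and -0.30 ± 0.034 (adjusted p = 2.67e-08). Its calls held with each library left out.

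Sqle, the next enzyme and a control point of the route, measured 254, 257 and 255 CPM in untransfected cells and 244, 242 and 239 with RfxCas13d NTG, a difference of -0.081 ± 0.024 (adjusted p = 0.0284). That call was lost without NTG replicate 2 or 3 or any of the 3 untransfected samples (adjusted p = 0.0571 to 0.142), and under DESeq2, no filter or a fit of only the 2 groups. With HiFi-RfxCas13d, DiCas7-11 and the ASO, Sqle measured 258, 261 and 266, 265, 263 and 265 and 251, 261 and 259 CPM, differences of 0.035 ± 0.024, 0.048 ± 0.024 and 0.0081 ± 0.024, none called. Lss, lanosterol synthase, measured 119, 127 and 123 CPM in untransfected cells and was lower with RfxCas13d at 109.8, 113 and 114, DiCas7-11 at 118, 111 and 111 and the ASO at 112, 113 and 118, without overlap. The fitted log2 fold changes of Lss were -0.13 ± 0.038 (adjusted p = 0.0231), -0.12 ± 0.038 (adjusted p = 0.0198) and -0.11 ± 0.037 (adjusted p = 0.0173). These calls were lost without RfxCas13d NTG replicate 1 or 2 or untransfected replicate 2 or 3 (adjusted p = 0.0536 to 0.156), without DiCas7-11 NTG replicate 2 or 3 or untransfected replicate 2 (0.0720 to 0.132) and in a fit of only those 2 groups, and without ASO replicate 1 or 2 or untransfected replicate 2 (0.0551 to 0.131).

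Cyp51 was the only member called in both directions. It measured 281, 276 and 278 CPM in untransfected cells, 311, 300.4 and 311 with HiFi-RfxCas13d NTG and 265, 259 and 252 with the ASO, so that HiFi-RfxCas13d lay wholly above and the ASO wholly below. Against untransfected cells the log2 fold changes of Cyp51 were 0.14 ± 0.024 (adjusted p = 9.70e-05) and -0.11 ± 0.024 (adjusted p = 0.000756), and both calls held with each library left out. With RfxCas13d and DiCas7-11 NTG it measured 275, 280.0 and 275 and 277, 291 and 285 CPM, differences of -0.010 ± 0.024 and 0.031 ± 0.024, not called.

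After that step, 8 members carry the sterol to cholesterol, and 3, 2, 1 and 4 of them were lower in the 4 comparisons in the same order, with 0 higher. Of all genes, 5.66%, 10.6%, 10.8% and 21.7% were lower and 5.60%, 10.3%, 11.1% and 21.0% higher. The DiCas7-11 count of 1 lower is near its share. Dhcr7, which reduces 7-dehydrocholesterol, measured 106, 106 and 100.5 CPM in untransfected cells, 87.5, 86.3 and 90.1 with RfxCas13d, 88.7, 88.5 and 89.3 with HiFi-RfxCas13d, 89.1, 81.2 and 89.5 with DiCas7-11 and 86.1, 84.3 and 78.9 with the ASO. No sample reached the untransfected range, and log2 fold changes were -0.25 ± 0.038 (adjusted p = 3.90e-05), -0.24 ± 0.038 (adjusted p = 4.31e-05), -0.27 ± 0.038 (adjusted p = 5.98e-06) and -0.33 ± 0.037 (adjusted p = 2.10e-08). These calls held with each library left out.

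Tm7sf2 had the largest fold changes of the members and the fewest counts. It measured 7.25, 6.71 and 7.96 CPM in untransfected cells, 3.67, 4.36 and 4.72 with RfxCas13d, 4.27, 5.37 and 5.50 with HiFi-RfxCas13d, 6.14, 5.59 and 4.60 with DiCas7-11 and 3.48, 3.31 and 2.72 with the ASO. All were below the untransfected samples, the ASO samples lowest. Tm7sf2 changed on the log2 scale by -0.77 ± 0.17 (adjusted p = 0.00327), -0.52 ± 0.17 (adjusted p = 0.0232) and -1.20 ± 0.17 (adjusted p = 1.35e-06) with RfxCas13d, HiFi-RfxCas13d and the ASO. With DiCas7-11 the value was -0.42 ± 0.17 (adjusted p = 0.0667), which was not called. The HiFi-RfxCas13d call was lost without NTG replicate 1 or untransfected replicate 1 or 3 (adjusted p = 0.0566 to 0.112), and DiCas7-11 was called without its NTG replicate 1 (adjusted p = 0.0436) and without the filter on low counts (0.0464).

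Hsd17b7, which reduces the 3-keto sterol, was called lower with RfxCas13d NTG, from 61.3, 63.9 and 71.4 to 58.5, 55.8 and 57.5 CPM (-0.19 ± 0.049 (adjusted p = 0.0109)), a call lost without NTG replicate 2 or untransfected replicate 3 (adjusted p = 0.0521 to 0.112). In the other 3 groups it measured 68.1, 68.4 and 68.1, 67.8, 58.7 and 66.1 and 61.8, 61.7 and 62.9 CPM, none called. Ebp, the sterol isomerase, and Nsdhl, the decarboxylating dehydrogenase, were called with the ASO. Ebp went from 25.3, 27.6 and 27.6 to 20.7, 22.1 and 20.2 CPM (-0.35 ± 0.065 (adjusted p = 5.55e-05)) and Nsdhl from 47.9, 47.9 and 50.3 to 43.3, 44.3 and 43.0 (-0.16 ± 0.052 (adjusted p = 0.0147)), both without overlap, and the Nsdhl call was lost without untransfected replicate 3 (adjusted p = 0.0720). Lbr, a nuclear membrane protein that is also a sterol reductase, Msmo1, the methyl sterol oxidase, and Sc5d, the sterol desaturase, were called in none of the 4. Their log2 differences ran from -0.027 to 0.082, 0.038 to 0.077 and -0.079 to 0.086. With 1 library left out, calls appeared for Lbr with HiFi-RfxCas13d (without untransfected replicate 3, adjusted p = 0.0359), Msmo1 with DiCas7-11 (without NTG replicate 2, 0.0377), Ebp with DiCas7-11 (without NTG replicate 1, 0.0486) and Sc5d with the ASO (without ASO replicate 2, 0.0413).

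Of the 3 transport members, Stard4, a soluble sterol carrier switched on by SREBP2, was lower with DiCas7-11 NTG and the ASO. It measured 141, 144 and 144 CPM in untransfected cells, 129, 129 and 135 with DiCas7-11 and 119, 117 and 117 with the ASO, each below the one before. On the log2 scale Stard4 differed by -0.13 ± 0.034 (adjusted p = 0.00804) and -0.28 ± 0.033 (adjusted p = 5.88e-08), the first lost in a fit of only the 2 groups. With RfxCas13d and HiFi-RfxCas13d it measured 130.2, 139 and 138 and 125, 138 and 140.1 CPM, not called. The HiFi-RfxCas13d difference was called without HiFi-RfxCas13d NTG replicate 3 (adjusted p = 0.0283), with the replicate block (0.0488) and after correction for GC content (0.0132). Npc2, which passes cholesterol to NPC1 in the lysosome, measured 70.1, 70.1 and 66.0 CPM in untransfected cells, 64.0, 61.1 and 62.6 with DiCas7-11 and 64.9, 61.8 and 63.5 with the ASO (-0.14 ± 0.047 (adjusted p = 0.0323) and -0.12 ± 0.045 (adjusted p = 0.0337)). Its calls were lost without DiCas7-11 NTG replicate 2 or 3 or untransfected replicate 1 or 2 (adjusted p = 0.0687 to 0.127), and without ASO replicate 2 or 3 or untransfected replicate 1 or 2 (0.0669 to 0.134). DESeq2 called neither, and the ASO call was lost under 5 of 9 other processing settings in all. Npc1 differed by -0.079 to -0.020 and was not called.

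The effectors were compared with each other over both crRNA arms, 6 samples against 6, to ask whether sterol genes depend on which effector was present. HiFi-RfxCas13d against RfxCas13d gave 6 members higher and 0 lower, where 1.37% of all genes were higher and 1.96% lower. The 6 were Hmgcs1 (0.079 ± 0.017 (adjusted p = 0.00901)), Sqle (0.12 ± 0.017 (adjusted p = 7.14e-05)), Cyp51 (0.13 ± 0.017 (adjusted p = 1.38e-05)), Nsdhl (0.15 ± 0.038 (adjusted p = 0.0261)), Hsd17b7 (0.22 ± 0.034 (adjusted p = 0.000177)) and Insig1 (0.10 ± 0.024 (adjusted p = 0.0119)). Hsd17b7 measured 58.5, 55.8 and 57.5 CPM in RfxCas13d NTG and 60.8, 61.0 and 58.3 in RfxCas13d mATXN2, against 68.1, 68.4 and 68.1 and 68.9, 67.7 and 68.1 with HiFi-RfxCas13d. Both arms thus lay apart from both arms of the other effector. The Nsdhl call was lost without RfxCas13d NTG replicate 2 or 3, RfxCas13d mATXN2 replicate 3, HiFi-RfxCas13d NTG replicate 3 or HiFi-RfxCas13d mATXN2 replicate 2 (adjusted p = 0.0565 to 0.109).

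Cyp51 measured 275, 280.0 and 275 and 280.0, 279 and 273 CPM in the NTG and mATXN2 arms of RfxCas13d and 311, 300.4 and 311 and 298, 299.9 and 299 in those of HiFi-RfxCas13d. For Insig1 the corresponding values were 191, 195 and 183 and 189.8, 188 and 193 with RfxCas13d and 208, 207 and 205 and 199.9, 203 and 201 with HiFi-RfxCas13d. In both genes the 6 HiFi-RfxCas13d samples were above the 6 RfxCas13d samples.

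DiCas7-11 against RfxCas13d gave 2 members higher, where 5.29% of all genes were higher, and 2 lower, where 6.06% were. Both counts are near the shares of all genes and are no result about the members as a set. Sqle (0.11 ± 0.017 (adjusted p = 5.45e-05)) and Hsd17b7 (0.12 ± 0.034 (adjusted p = 0.0166)) were higher, and Srebf1 (-0.10 ± 0.028 (adjusted p = 0.0131)) and Stard4 (-0.095 ± 0.024 (adjusted p = 0.00863)) lower. Sqle measured 265, 263 and 265 and 259.8, 263 and 259 CPM in the NTG and mATXN2 arms of DiCas7-11, above the 244, 242 and 239 and 242, 247 and 247 of RfxCas13d. The Hsd17b7 call was lost without DiCas7-11 NTG replicate 3 (adjusted p = 0.0530). With 1 library left out, calls appeared for Insig2, Mvk or Lbr (adjusted p = 0.0267 to 0.0381).

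DiCas7-11 against HiFi-RfxCas13d gave 0 members higher and 5 lower, where 3.0% of all genes were higher and 4.05% lower. The 5 were Cyp51 (-0.14 ± 0.017 (adjusted p = 3.29e-06)), Lbr (-0.14 ± 0.025 (adjusted p = 0.000604)), Sc5d (-0.14 ± 0.027 (adjusted p = 0.00171)), Insig1 (-0.13 ± 0.024 (adjusted p = 0.000923)) and Stard4 (-0.086 ± 0.024 (adjusted p = 0.0226)). Sc5d measured 54.1, 56.7 and 53.5 and 54.3, 55.3 and 56.6 CPM in the NTG and mATXN2 arms of DiCas7-11 and 59.9, 60.7 and 62.1 and 59.8, 61.5 and 59.4 in those of HiFi-RfxCas13d, with no overlap. Lbr measured 146, 142 and 154 and 141, 150.0 and 137 against 154, 162 and 160.3 and 160.3, 159 and 159.7, where DiCas7-11 NTG replicate 3 reached the lowest HiFi-RfxCas13d sample. The Stard4 call was lost without HiFi-RfxCas13d NTG replicate 2 or 3 or HiFi-RfxCas13d mATXN2 replicate 3 (adjusted p = 0.0544 to 0.0841) and in a fit of only the groups compared, and with 1 library left out, calls appeared for Hmgcs1 or Hsd17b7 (adjusted p = 0.0313 to 0.0477). The summed interferon-stimulated level was 183 to 251 CPM over both RfxCas13d arms, 146 to 171 over both HiFi-RfxCas13d arms and 159 to 177 over both DiCas7-11 arms, and its part in these differences was not tested.

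**Figure D5:**
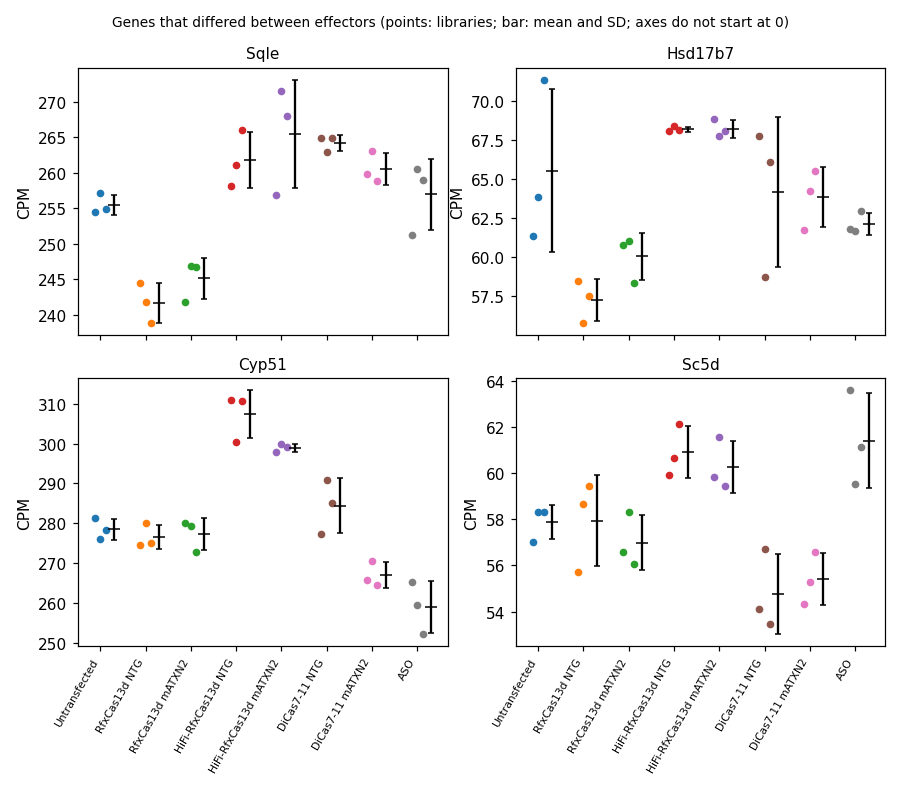
TMM-scaled CPM (vertical axes, which do not start at 0) of Sqle, Hsd17b7, Cyp51 and Sc5d in each of the 8 groups, 1 point per sample, with a bar for the mean and SD of 3 samples. Hsd17b7 lies at 55.8 to 61.0 CPM with RfxCas13d and at 67.7 to 68.9 CPM with HiFi-RfxCas13d in either arm.

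Neighbouring lipid genes were counted from lists chosen for their role. Against untransfected cells 5.60% of all genes were higher and 5.66% lower with RfxCas13d NTG, 10.3% and 10.6% with HiFi-RfxCas13d, 11.1% and 10.8% with DiCas7-11, and 21.0% and 21.7% with the ASO, so the counts of these lists with the ASO are to be read against the largest shares. Of 17 measured genes of fatty acid synthesis, which SREBP1 serves, 3 were higher and 0 lower with RfxCas13d NTG against untransfected cells, 6 and 2 with HiFi-RfxCas13d, 5 and 3 with DiCas7-11, and 3 and 5 with the ASO. Fasn, fatty acid synthase, was the list's one gene called in the mATXN2 comparisons. It measured 640.0 to 686 CPM in RfxCas13d NTG and 793 to 812 in RfxCas13d mATXN2, 693 to 703 and 777 to 825 with HiFi-RfxCas13d, and 635 to 705 and 777 to 788 with DiCas7-11. The mATXN2 arm was above the NTG arm without overlap in each effector, by 0.28 ± 0.035 (adjusted p = 7.31e-05), 0.19 ± 0.035 (adjusted p = 0.00547) and 0.21 ± 0.035 (adjusted p = 0.00286). Untransfected cells measured 537 to 605 CPM and the ASO group 792 to 829, and against untransfected cells Fasn was higher by 0.19, 0.27 and 0.23 in the NTG groups and by 0.48 with the ASO (adjusted p = 0.000645, 4.20e-06, 3.58e-05 and 6.88e-12). Acaca, acetyl-CoA carboxylase, was higher in all 4 comparisons with untransfected cells (0.18, 0.22, 0.25 and 0.14), while Scd2, a desaturase, was called in the 3 NTG groups (0.19, 0.18 and 0.14) and its relative Scd1 with HiFi-RfxCas13d (0.39). Acss2, which makes acetyl-CoA from acetate, was lower with HiFi-RfxCas13d and DiCas7-11 (-0.24 and -0.41), as was Lpin1, a phosphatidate phosphatase (-0.21 and -0.33). With the ASO, Elovl5, a fatty acid elongase, was lower (-0.29) and Acacb, a second acetyl-CoA carboxylase, higher (0.22). Acsl3, which activates fatty acids, was lower with the ASO (-0.22) and higher with HiFi-RfxCas13d and DiCas7-11 (0.11 and 0.14).

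Of 10 measured genes of sterol export and esterification, 2 were higher and 0 lower with RfxCas13d NTG, 2 and 0 with HiFi-RfxCas13d, 2 and 1 with DiCas7-11, and 2 and 2 with the ASO. The ASO counts of 2 and 2 are shares near those of all genes. The 2 higher in each were Abca1, the cholesterol exporter, and Mylip, a ubiquitin ligase. Over the 10 genes the median log2 fold changes were 0.042, -0.031, -0.015 and 0.15 in the same order, and 6, 5, 5 and 6 genes were above 0. Abca1 measured 22.6 to 26.8 CPM in untransfected cells, 44.6 to 46.0, 41.1 to 46.0 and 33.7 to 45.6 in the NTG groups of RfxCas13d, HiFi-RfxCas13d and DiCas7-11 and 60.5 to 66.3 with the ASO, without overlap. Its log2 fold changes were 0.90 ± 0.076 (adjusted p = 1.27e-09), 0.84 ± 0.076 (adjusted p = 5.75e-09), 0.71 ± 0.078 (adjusted p = 1.44e-07) and 1.38 ± 0.071 (adjusted p = 4.23e-15). Mylip changed by 0.42, 0.44, 0.38 and 0.67 (adjusted p = 0.00361, 0.000954, 0.00450 and 4.23e-07). Soat1, which esterifies cholesterol, was lower with DiCas7-11 (-0.34, adjusted p = 0.0100) and with the ASO (-0.37, adjusted p = 0.00151), and Lpcat3, a phospholipid acyltransferase, with the ASO (-0.15).

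Of 18 genes of sterol transport and electron supply, 3 were higher and 4 lower with RfxCas13d NTG, 4 and 6 with HiFi-RfxCas13d, 4 and 6 with DiCas7-11, and 3 and 8 with the ASO. Gramd1b, which carries sterol from the plasma membrane, was higher in all 4 (0.25, 0.30, 0.22 and 0.36), as was Tmem97 (0.13, 0.23, 0.20 and 0.11). Gramd1a, of the same family as Gramd1b, was lower in all 4 (-0.15, -0.21, -0.22 and -0.26), as was Scarb1, a lipoprotein receptor (-0.17, -0.16, -0.17 and -0.13). Osbpl2 was lower with RfxCas13d, HiFi-RfxCas13d and the ASO (-0.16, -0.16 and -0.14), Stard3 with DiCas7-11 (-0.25) and Gramd1c with the ASO (-0.40). Osbpl8, a lipid exchanger, was lower with mATXN2 than with NTG in DiCas7-11 (-0.13 ± 0.029 (adjusted p = 0.0206)).

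Of 12 genes of SREBP proteolysis and sterol-regulated degradation, 1 was higher and 0 lower with RfxCas13d NTG, 5 and 1 with HiFi-RfxCas13d, 4 and 1 with DiCas7-11, and 6 and 3 with the ASO. Rnf139, a ubiquitin ligase, was higher with HiFi-RfxCas13d, DiCas7-11 and the ASO (0.17, 0.26 and 0.32), as were Erlin1 (0.15, 0.15 and 0.19) and Nploc4, a partner of the segregase VCP (0.081, 0.12 and 0.18). Rnf145, another ubiquitin ligase, was higher with RfxCas13d and HiFi-RfxCas13d (0.19 and 0.11). Mbtps2, a Golgi protease that frees SREBPs, was lower with HiFi-RfxCas13d (-0.11 ± 0.033 (adjusted p = 0.0165)) and the ASO (-0.27 ± 0.032 (adjusted p = 5.71e-08)), and Paqr3 with DiCas7-11 (-0.29). Of 14 genes that use isoprenoids, 3, 4, 2 and 3 were higher and 0, 0, 0 and 3 lower in the same order. The ASO counts of 3 and 3 are near the shares of all genes, 21.0% and 21.7%. Pdss1, which builds the coenzyme Q tail, was higher in all 4 (0.23, 0.29, 0.23 and 0.44), and so was Pggt1b, a geranylgeranyl transferase subunit (0.16, 0.13, 0.16 and 0.24). Rabggtb was higher with RfxCas13d and HiFi-RfxCas13d (0.10 and 0.13). Nus1, of dolichol synthesis, was higher with HiFi-RfxCas13d (0.079) and lower with the ASO (-0.14), where Coq2, of coenzyme Q synthesis (-0.34), and Dhdds, the partner of Nus1 (-0.18), were also lower. In the mATXN2 comparisons no gene of these last 2 lists was called, at an unadjusted p under 0.05 in 1, 0 and 1 isoprenoid genes and 0, 0 and 2 proteolysis genes.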

How the data were processed

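RNA-seq was performed on 24 Neuro2A samples in 8 groups of 3, with Kapa Hyper Stranded mRNA libraries sequenced for 101 cycles from one end on a NovaSeq instrument over 2 lanes. The authors estimated transcript abundance with Salmon 1.5.2 on GRCm39 and deposited expected counts per gene, scaled with tximport (lengthScaledTPM), so values are estimated counts that need not be whole and that already carry a correction for transcript length. R 4.2.2 is also listed in the submitters' processing notes.

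Expected counts were rounded to whole numbers. The filter kept genes reaching 0.5 CPM in 3 or more samples, libraries were scaled by TMM, and one edgeR 4.0.16 quasi-likelihood model (R 4.3.3) with a coefficient per group was fitted to all 24 samples and 13901 genes. Benjamini-Hochberg adjustment was made within each of 13 comparisons. The authors' methods give limma-trend with 1 adjustment over 10 comparisons, which was run as an alternative. Other alternatives were DESeq2 1.42.0 and its size factors, limma 3.58.1, no filter, only the groups compared, a replicate block, and each library left out, plus corrections for transcript length and GC content that were added after seeing the data. Those corrections used a lowess fit (span 0.3) on the longest coding transcript in GENCODE M21, matched for 12865 of 13901 genes and 28 of 28 members. The transcript definition was changed once, after first results, because the median transcript gave implausibly short genes.

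The members and gene lists were chosen with earlier results of these data known. Members called in at least 1 comparison of mATXN2 with NTG, or of NTG or the ASO with untransfected cells, are given with every sample's value, and of the other lists the called genes with the largest changes, at most 4 per list and comparison, are named, except for an item that is not reported here. Library totals and the spread of 3 samples set the precision, with standard errors of members from 0.024 (Sqle) to 0.18 (Tm7sf2) on the log2 scale in mATXN2 against NTG with RfxCas13d. Replicates differed by more than counting noise (chi-square per gene 3.33 to 5.59 in DiCas7-11 NTG and 1.68 to 2.55 in the other groups), so none was counted as a repeat of another. Replicate numbers were checked for pairing by the correlation of same-numbered samples' deviations from their group means, which ran from -0.111 to 0.367. All 3 pairs exceeded 0.1 in RfxCas13d mATXN2 against NTG alone. The other comparisons share only a number.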

Additional observations from a re-analysis of the deposited data

Results flagged for a closer look

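Several members moved in opposite directions against untransfected cells in 2 groups. Every sample of one group lay above every untransfected sample, and every sample of the other lay below every untransfected sample. Each difference was then tested by edgeR between the groups themselves. The genes were picked by that separation in the same samples, so the adjusted p-values below are no independent support for it. Sqle differed by -0.12 on the log2 scale between RfxCas13d NTG and HiFi-RfxCas13d NTG (adjusted p = 0.0141) and by -0.13 between RfxCas13d NTG and DiCas7-11 NTG (adjusted p = 0.00170), lower with RfxCas13d in both. Sc5d, the sterol desaturase, was 0.15 higher with HiFi-RfxCas13d NTG than with DiCas7-11 NTG, a difference that did not pass the threshold (adjusted p = 0.0602), and it differed by -0.16 between DiCas7-11 NTG and the ASO (adjusted p = 0.00118). Hmgcs1 was 0.14 higher with HiFi-RfxCas13d NTG than with the ASO (adjusted p = 4.63e-05). Cyp51 was 0.25 higher with HiFi-RfxCas13d NTG than with the ASO (adjusted p = 4.32e-09). Among these genes only Cyp51 was itself called against untransfected cells in both directions. The effector, the lipid and plasmid, and the ASO's own delivery cannot be told apart in the comparisons with the ASO group. Groups of 3 are too small for the check of single samples that stand apart from their group.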

How the results depend on the processing

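Of 68 called member differences, none reversed under any alternative. All 68 were called with DESeq2 size factors and with the replicate block, 64 with no filter, 63 by DESeq2, 57 in fits of only the groups compared, 65 and 66 after corrections for transcript length and GC content, and 50 of 53 when edgeR or limma-trend adjusted over 10 comparisons. The mATXN2 against NTG count with DiCas7-11, 0 as reported, was 1 with no filter (Idi1), 2 by DESeq2, 3 by limma-trend and 3 by edgeR over 10 comparisons, 1 with the replicate block (Cyp51), 1 with the GC correction (Idi1), and 0 to 1 with a library left out. With the replicate block, counts for the other comparisons stayed within 1.5 times, and the RfxCas13d mATXN2 against NTG count, the one whose samples pair, remained 0. With DiCas7-11 NTG against untransfected cells, the 12 calls became 5 in a fit of only those groups. For DiCas7-11 against RfxCas13d over both arms, the GC correction gave 7 in place of 4, and the DiCas7-11 against HiFi-RfxCas13d difference in response gave 1 with no filter (Idi1). The GC and length corrections were chosen after seeing the data. Leaving out 1 library gave 8 to 11 calls for RfxCas13d NTG against untransfected cells in place of 13 (the lowest without untransfected replicate 3), 9 to 12 for HiFi-RfxCas13d in place of 10, 8 to 12 for DiCas7-11 in place of 12 and 14 to 16 for the ASO in place of 18. Causes of these shifts were not tested, other than that a fit of only the groups compared, or without a library, has fewer samples. With 3 samples per group, differences of lowly counted genes such as Tm7sf2 and Mvk have wide intervals.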
